A study of Mus musculus with 4 samples.

Results

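The genes described are the potassium channel genes of the mouse retina: the Ensembl genes of the deposited table whose symbol begins with Kcn, then a family letter and a number, without Kcnj8 and Kcnj10. The rule took 59 of 13452 Ensembl genes and 137 of 44325 isoforms. Of the 59 genes, 56 code for protein and 3 are antisense RNAs that carry the name of a channel gene (Kcnab3os, Kcnd3os and Kcnmb4os2). The rule used names only, and no measured value.

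Retinas of C57BL6/J mice, all male and wild type, were dissociated; C57BL6/J is an inbred laboratory strain. Long-read (nanopore) sequencing of 10x single-cell cDNA was done on 4 libraries: 2 labelled with no enrichment (1 from postnatal day 40, the other with no age given), 1 labelled CD73 enrichment (postnatal week 8) and 1 labelled CD90.2 enrichment (postnatal month 4). Photoreceptors carry CD73 on their surface, and ganglion cells and other neurons carry CD90.2. The protocol text describes removal of CD73-positive cells with magnetic beads and the same kind of beads to select CD90.2-positive cells. The design text names flow sorting instead. The deposited table gives counts for 6 cell classes: rods, cones, bipolar cells, amacrine cells, ganglion cells and Müller glia, the main glial cell of the retina. Each class is 1 pooled column without replicates, so no test between classes was possible. Differences are given by size, as CPM, a count divided by the total of its column and multiplied by 1000000, with exact Poisson 95% intervals that cover counting error only. A column pools cells, so more RNA per cell and more cells with the RNA cannot be told apart.

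A potassium channel lets potassium ions leave or enter a cell and so sets its resting voltage and how fast a signal ends. Voltage-gated channels (among them Kcna to Kcnd and Kcnh) open on depolarisation, and the silent subunits (Kcng, Kcns and Kcnv) form channels only together with Kcnb subunits. Inward rectifiers (Kcnj) and 2-pore channels (Kcnk) hold the resting voltage. Kcnm, Kcnn, Kcnt and Kcnu channels respond to calcium, sodium or pH inside the cell, and auxiliary subunits (Kcnab, Kcne, Kcnip and Kcnmb) alter the gating or transport of the pore-forming ones. In the retina, photoreceptors depend on potassium current in darkness, bipolar and amacrine cells shape their responses with it, and Müller glia carry potassium away from active neurons.

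The column totals ran from 3509890 counts in ganglion cells to 55437340 in rods, so 1 count was worth 0.285 CPM in ganglion cells and 0.0180 CPM in rods. For a count of 0 the limit used was 3 counts, or 0.855 CPM in ganglion cells and 0.0541 CPM in rods; the 2-sided exact interval of such a count is wider and ends at 1.05 and 0.0665 CPM. All 6 listed markers of rods, cones, bipolar, amacrine and ganglion cells were highest in their own column, and 5 of 6 were for Müller glia. Summed rod markers stood in the other columns at 0.659% (amacrine), 1.72% (bipolar), 4.11% (cone) and 5.84% (Müller glia) of their rod level. The ganglion cell column stood apart, with all 6 rod and all 6 cone markers at 0 counts, so a 0 there has a different background from a 0 elsewhere. In the Müller glia column, markers of other cells were also high: pigment epithelium markers summed to 9480 CPM against 65.9 CPM in the next class, and microglia markers to 1902 CPM. Pericyte markers summed to 253 CPM in the Müller glia column.

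The isoforms that differ between classes turned in part on short coding exons, whose sequences are shown first because the later shares refer to them. They were read from the GENCODE M21 transcripts (mouse build GRCm38), 5′ to 3′ on the coding strand. In the first 4, capitals mark the alternative exon and lower case the 10 bases of the neighbouring exons on each side. Kcnip1 has a 33-nt exon at chr11:33651540-33651572, Kcnip2 a 96-nt exon at chr19:45797091-45797186 and a 54-nt exon at chr19:45796279-45796332, and Kcnma1 a 12-nt exon at chr14:23449200-23449211, all on the minus strand and all a multiple of 3 in length.
Kcnip1 33-nt exon: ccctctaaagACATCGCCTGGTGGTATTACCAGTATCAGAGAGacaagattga
Kcnip2 96-nt exon: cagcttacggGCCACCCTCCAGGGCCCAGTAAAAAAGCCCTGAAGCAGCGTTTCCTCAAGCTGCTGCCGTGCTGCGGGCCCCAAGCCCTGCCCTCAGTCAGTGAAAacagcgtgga
Kcnip2 54-nt exon: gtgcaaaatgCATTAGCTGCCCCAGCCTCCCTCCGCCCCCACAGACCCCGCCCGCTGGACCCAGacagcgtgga
Kcnma1 12-nt exon: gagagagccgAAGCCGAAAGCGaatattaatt

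Kcnma1 also has a pair of neighbouring coding exons of 92 nt each, at chr14:23526725-23526816 (upstream in the transcript) and chr14:23526536-23526627 (downstream). They are alike at 58 of 92 bases (63.0%), and capitals below mark the bases at which they differ.
Kcnma1 upstream exon: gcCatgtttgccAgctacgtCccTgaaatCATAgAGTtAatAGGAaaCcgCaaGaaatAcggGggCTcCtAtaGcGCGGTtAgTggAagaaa
Kcnma1 downstream exon: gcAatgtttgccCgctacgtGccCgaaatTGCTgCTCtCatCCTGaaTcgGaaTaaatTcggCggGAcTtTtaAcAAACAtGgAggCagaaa

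A gene was called leading in a class when it had at least 20 counts and its highest CPM was at least 2 times that of the next class. This held for 40 of the 55 potassium channel genes with enough counts (72.7%), against 37% of all 12654 genes. Amacrine cells led for 17 genes (30.9%, against 8.01% of all genes), bipolar cells for 8 (14.5%, against 4.44%) and ganglion cells for 7 (12.7%, against 4.98%). Müller glia led for 5 (9.09%, against 10.6%), rods for 2 (3.64%, against 7.03%) and cones for 1 (1.82%, against 1.98%), shares near or below the background. A stricter call, at least 80% of a gene's summed CPM in 1 class, held for 22 of 55 genes (40%), against 13.1% of all genes. These 22 divided into 8 amacrine (14.5%, against 3.73%), 5 ganglion (9.09%, against 1.35%), 4 bipolar (7.27%, against 1.32%), 3 Müller glia (5.45%, against 4.95%), 1 rod (1.82%, against 1.21%) and 1 cone gene (1.82%, against 0.529%). The ganglion cell calls rested on low counts: with at least 100 counts, 2 of 36 genes were leading there (5.56%, against 4.26% of all genes at that minimum) and 0 were restricted (against 0.659%). Amacrine calls fell too at that minimum, to 9 leading and 2 restricted genes of the 36. The shares over all genes at 100 counts were not computed for amacrine cells. Without the ganglion cell column, 39 genes were leading, 23 of them in amacrine cells, and 15 in place of 8 passed the 80% call in amacrine cells. The shares over all genes were not computed without that column, so whether this rise is particular to potassium channel genes was not tested.

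**Figure D1:**
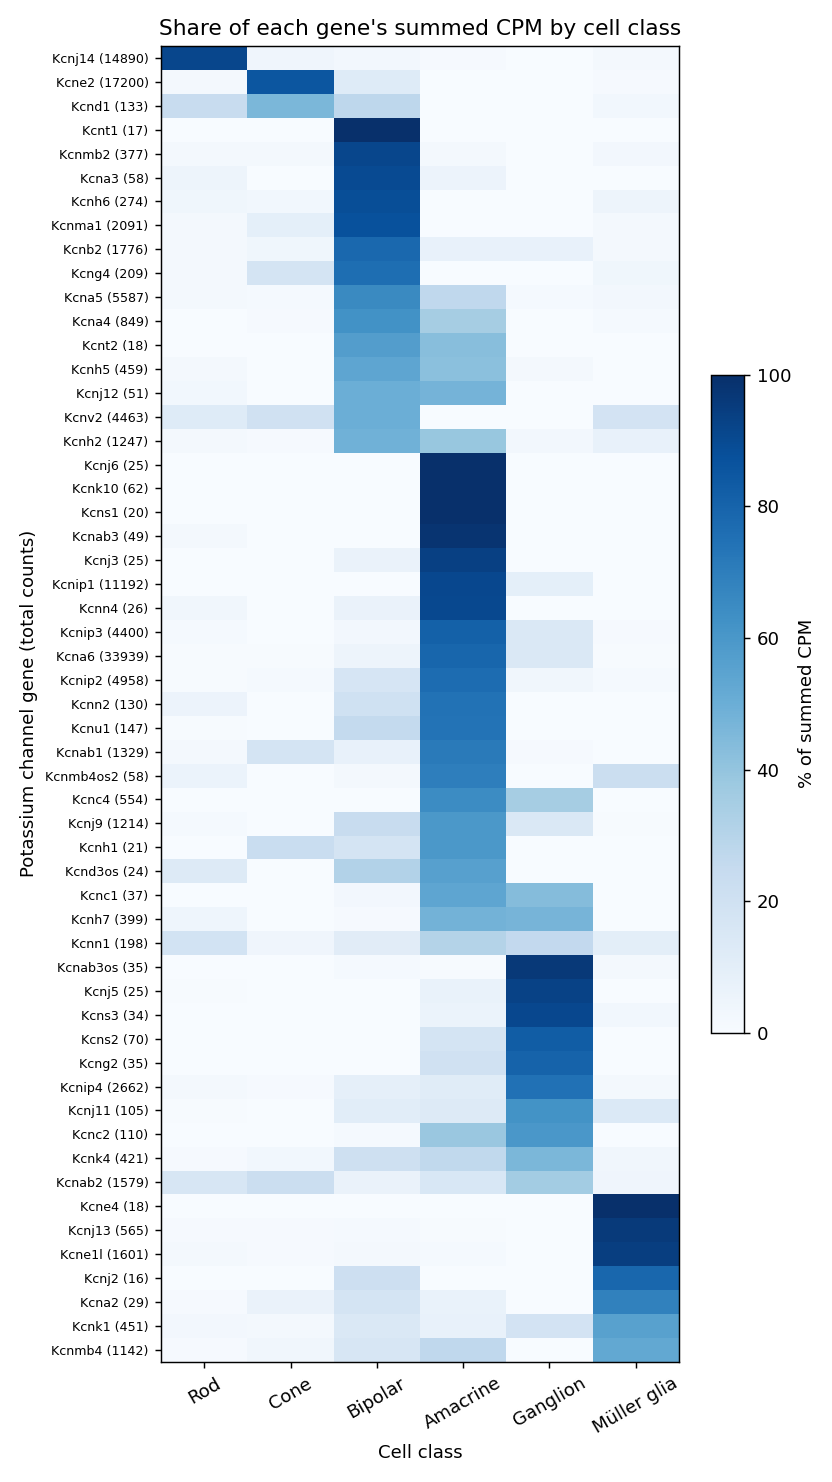
Rows are 55 of the 59 potassium channel genes with their total counts, columns the 6 cell classes, and colour the percent of the gene's summed CPM found in a class, from 0 (white) to 100 (dark blue). Genes are grouped by the class where they were highest: rods hold Kcnj14, cones Kcne2 and Kcnd1, and most of the other genes lie in the bipolar, amacrine, ganglion and Müller glia blocks.

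As a whole, the 59 genes made up 123173 of 149645836 counts (0.0823%). Their summed level was 1484 CPM in cones, 1299 in amacrine cells, 722 in bipolar cells, 446 in rods, 431 in ganglion cells and 401 in Müller glia. In every class 1 gene held a large part of that sum. Kcne2 held 91.5% of the counts in cones and 27.1% in bipolar cells, Kcnj14 58.6% in rods, Kcna6 51.0% in amacrine cells, Kcne1l 46.9% in Müller glia and Kcnip4 38.6% in ganglion cells. Without the gene named for it, the sum fell to 126 CPM in cones and 185 CPM in rods. At least 1 count was found for 54 genes in amacrine cells (91.5%, against 90.7% of all genes). In bipolar cells it was 48 (81.4%, against 91.99%), in rods 44 (74.6%, against 92.7%) and in Müller glia 34 (57.6%, against 80.4%). In cones it was 29 (49.2%, against 77.3%) and in ganglion cells 27 (45.8%, against 54.7%). The share of genes found was thus near that of all genes in amacrine cells and below it in the other classes. If every column had only as many counts as that of ganglion cells, the expected number would be 46.1 genes in amacrine cells, 39.4 in bipolar cells, 31 in Müller glia, 27.8 in rods and 26 in cones.

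**Figure D2:**
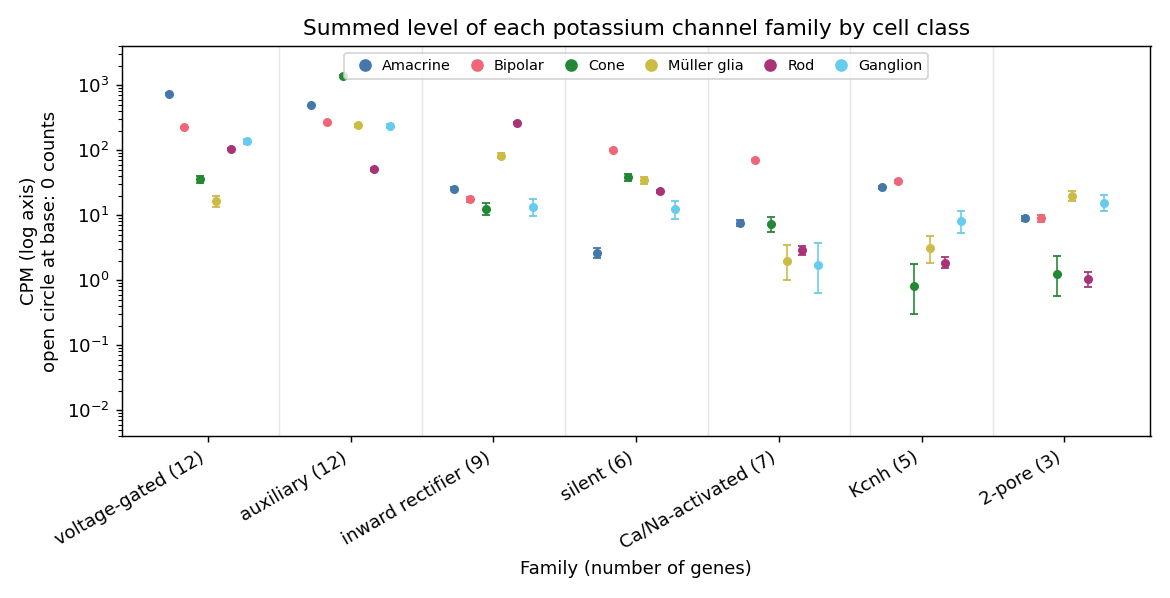
The vertical axis is the summed CPM of a family on a log scale, the horizontal axis the family with its number of genes, and each coloured point a cell class with its exact Poisson 95% interval. Voltage-gated genes were highest in amacrine cells (738 CPM), auxiliary subunits in cones (1388), inward rectifiers in rods (262), and silent and calcium- or sodium-activated subunits in bipolar cells (99.4 and 70.2).

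Among the voltage-gated genes, 12 were measured and 6 were leading (against 37% of all genes): 3 in bipolar cells and 1 each in amacrine cells, Müller glia and rods. Kcnb2, which codes for a delayed rectifier, was highest in bipolar cells, at 50.1 CPM, and between 1.10 and 4.84 CPM in the other 5 classes. The Kcnb2 model ends early and covers 435 of 2721 coding bases.

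Kcna5 and Kcna6 code for delayed rectifiers of the Shaker family and lie near each other on chromosome 6. Kcna5 was at 110 CPM in bipolar cells (95% interval 106 to 113), 44.6 in amacrine cells (42.7 to 46.5) and 2.28 to 4.40 CPM in the other 4 classes. The bipolar level was 2.46 times the amacrine level, and the other 4 classes were low. Kcna6 was at 662 CPM in amacrine cells, 120 in ganglion cells, 41.7 in bipolar cells, 5.48 in rods, 5.05 in Müller glia and 3.83 in cones. The amacrine level was 5.53 times the ganglion cell level, and the intervals of rods, Müller glia and cones overlapped. All of these counts came from 2 models that hold no coding base, described with the isoforms below. Kcna4, whose channels inactivate fast, had 15.0 CPM in bipolar cells and 8.41 in amacrine cells, with 0 to 0.326 CPM elsewhere. Kcna3 was nearly all in bipolar cells (48 of 58 counts), and Kcna2 was highest in Müller glia, at 1.47 CPM from 9 counts.

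The Kcnc genes code for channels that open and close fast and let neurons fire at high rates. Kcnc4 was at 11 CPM in amacrine cells and 5.98 in ganglion cells, with 0 counts in bipolar cells, cones and Müller glia. Kcnc1 and Kcnc2 were found mainly in the same classes at lower levels. Kcnc1 was at 0.705 CPM in amacrine cells (34 counts) and 0.570 in ganglion cells (2 counts). Kcnc2 was at 2.01 CPM in amacrine cells (97 counts) and 3.13 in ganglion cells (11 counts). For both genes the intervals of these classes overlapped. Kcnd1 was at 2.46 CPM in cones, 1.48 in bipolar cells and 1.28 in rods, with overlapping intervals, and had 0 of its 133 counts in amacrine cells.

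Of the 6 silent subunit genes, 6 were leading (against 37% of all genes). In ganglion cells 3 of them led (against 4.98%), on 18, 17 and 8 ganglion cell counts, and none of these 3 genes had 100 counts in all. Kcnv2, a silent subunit of photoreceptors and a gene mutated in an inherited cone dystrophy, was highest in bipolar cells. It was at 93.0 CPM there (89.5 to 96.5), 36.7 in cones (32.4 to 41.3), 33.6 in Müller glia (29.2 to 38.5), 23.1 in rods (21.9 to 24.4), 0.207 in amacrine cells and 0 in ganglion cells. The bipolar level was 2.53 times the cone level, the cone and Müller glia intervals overlapped, and the rod level was below both. Its Müller glia level was above its rod level, whereas the summed rod markers in Müller glia were at 5.84% of theirs and the bipolar markers at 3.19%. Kcng4 was also a bipolar gene, with 186 of 209 counts there. Kcns2, Kcns3 and Kcng2 were highest in ganglion cells, at 5.13, 4.84 and 2.28 CPM. Amacrine cells held the other counts of Kcns2 (52) and Kcng2 (27), and all but 1 of the others of Kcns3 (16). Kcns1 was found in amacrine cells only, with 20 counts.

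Kcnh genes code for voltage-gated channels of the eag, erg and elk type. Kcnh2, the erg channel best known from the heart, was at 17.5 CPM in bipolar cells and 14.1 in amacrine cells, with 2.61 CPM or less in the other 4 classes. The intervals of Kcnh2 in these classes did not overlap. Kcnh5 was at 6.69 and 5.22 CPM, with overlapping intervals. Kcnh6 differed: it had 8.58 CPM in bipolar cells, from 249 counts, and 0 counts in amacrine cells, where the 3-count limit is 0.0622 CPM. Kcnh7 was shared by amacrine cells (6.94 CPM) and ganglion cells (6.84 CPM), and had 0.138 CPM in bipolar cells. Kcnh1 had 21 counts, 17 of them in amacrine cells.

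Inward rectifiers were led by 1 rod gene. Kcnj14, a strong inward rectifier, had 14470 of 14890 counts in rods. Its level was 261 CPM in rods, 11.5 in cones, 5.05 in Müller glia, 6.72 in bipolar cells and 2.28 in amacrine cells, with 0 counts in ganglion cells. The rod level was 22.7 times the cone level. Relative to rods, Kcnj14 was at 4.40% in cones, 1.94% in Müller glia, 2.58% in bipolar cells and 0.873% in amacrine cells. The summed rod markers in the same classes were at 4.11%, 5.84%, 1.72% and 0.659%. Whether the Kcnj14 counts outside rods are rod RNA was not tested.

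Kcnj13, a weak rectifier of the pigment epithelium and of Müller glia, was at 74.0 CPM in the Müller glia column and at 0.518 to 1.07 CPM in amacrine cells, cones, rods and bipolar cells, with 0 counts in ganglion cells. The Müller glia level was 69.3 times the next. That column also held pigment epithelium markers (9480 CPM), and their part in the Kcnj13 level was not tested. The subunits of G-protein-gated rectifiers had most of their counts in amacrine cells, except for Kcnj5. Kcnj9 was at 19.6 CPM in amacrine cells, 7.89 in bipolar cells and 4.84 in ganglion cells. Kcnj3 had 24 of 25 counts and Kcnj6 25 of 25 counts in amacrine cells. With 1 count worth 0.0207 CPM there, both levels were below the 3-count limit of ganglion cells (0.855 CPM). Whether Kcnj3 and Kcnj6 were higher in amacrine than in ganglion cells could therefore not be told. Kcnj5 had 12 counts in amacrine cells and 12 in ganglion cells, which made 0.249 and 3.42 CPM. Kcnj11, the pore of the ATP-sensitive channel, was highest in ganglion cells, at 5.13 CPM from 18 counts. Kcnj12 was divided between bipolar cells and amacrine cells (0.655 and 0.622 CPM). Kcnj2 had 16 counts in all, 7 in Müller glia (1.14 CPM) and 9 in bipolar cells (0.310 CPM).

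The 2-pore channels numbered 3. Kcnk1 was highest in Müller glia, at 19.1 CPM (15.8 to 22.9), followed by ganglion cells at 6.27 (3.93 to 9.49) and bipolar cells at 4.86 (4.09 to 5.73), and the last intervals overlapped. Kcnk10 had all of its 62 counts in amacrine cells. Kcnk4, a mechanically gated channel, had 9.12 CPM in ganglion cells, 5.22 in amacrine cells and 4.07 in bipolar cells, and at most 0.652 CPM in the other 3 classes.

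Calcium-activated channels were a bipolar group through Kcnma1, the large-conductance (BK) channel. Kcnma1 was at 67.1 CPM in bipolar cells, 6.98 in cones, 1.44 in rods, 1.30 in Müller glia and 0.104 in amacrine cells, with 0 counts in ganglion cells. The bipolar level was 9.62 times the cone level, and amacrine cells had 5 of 2091 counts. Without Kcnma1, the family summed to 3.07 CPM in bipolar cells and 7.38 in amacrine cells. Kcnn2, Kcnn4 and Kcnu1 were leading in amacrine cells, with 104 of 130, 24 of 26 and 121 of 147 counts. The Kcnn2 model overlaps annotated genes on the other strand. Kcnn1 was spread over all 6 classes, between 0.274 and 2.01 CPM. Kcnt1 had 17 counts, all in bipolar cells, and Kcnt2 had 18, in amacrine and bipolar cells. Both were below the 20 counts needed for a call.

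**Figure D3:**
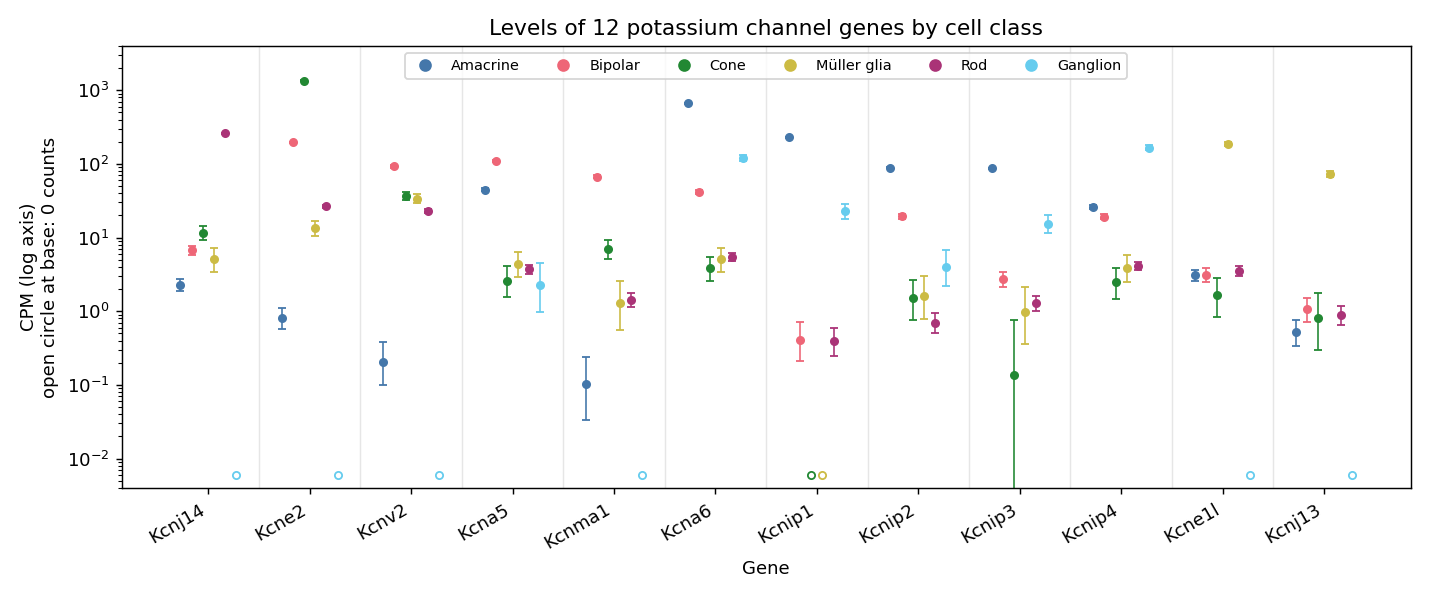
The vertical axis is CPM on a log scale for 12 genes, coloured points are cell classes, bars are exact Poisson 95% intervals, and open circles at the base mark classes with 0 counts. Kcnj14 peaks in rods, Kcne2 in cones, Kcnv2, Kcna5 and Kcnma1 in bipolar cells, Kcna6 and Kcnip1 to Kcnip3 in amacrine cells, Kcnip4 in ganglion cells, and Kcne1l and Kcnj13 in Müller glia.

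Of 12 auxiliary subunit genes, 11 had enough counts and 9 were leading (against 37% of all genes), 5 of them in amacrine cells (against 8.01%). The 4 Kcnip genes code for calcium-binding proteins that attach to Kcnd channels. Kcnip1 was at 230 CPM in amacrine cells (225 to 234), 22.8 in ganglion cells, 0.414 in bipolar cells and 0.397 in rods, with 0 counts in cones and Müller glia. Kcnip3 was at 86.8 CPM in amacrine cells, 15.4 in ganglion cells and 2.72 CPM or less elsewhere. Kcnip2 was at 89.5 CPM in amacrine cells, 19.5 in bipolar cells and 3.99 in ganglion cells. Kcnip4 had another order, with 166 CPM in ganglion cells, 25.8 in amacrine cells, 19.2 in bipolar cells and 2.46 to 4.17 CPM in the other 3 classes. Kcnip1, Kcnip3 and Kcna6 in ganglion cells were at 9.93%, 17.7% and 18.1% of their amacrine level, where the summed amacrine markers were at 6.04%. Single amacrine markers differed widely: Gad2 was at 3.13 CPM in ganglion cells and 7.81 in amacrine cells, and Gad1 at 0.570 and 87.5. The part of amacrine RNA in the 3 ganglion cell values was not tested. Kcnip4 in amacrine and bipolar cells was at 15.5% and 11.6% of its ganglion cell level, where the summed ganglion cell markers were at 2.26% and 0.183%. Sncg made up 15741 of the 16915 CPM of that sum in ganglion cells. Single markers differed: Nefm was at 5.72 CPM in amacrine, 2.59 in bipolar and 65.5 in ganglion cells, and Pou4f1 at 0.207, 0 and 17.9. The part of ganglion cell RNA in these Kcnip4 values was not tested.

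Kcne genes code for small subunits with 1 membrane span. Kcne2 was at 1358 CPM in cones (1331 to 1385), 196 in bipolar cells (191 to 201), 26.7 in rods, 13.4 in Müller glia and 0.808 in amacrine cells, with 0 counts in ganglion cells. The cone level was 6.94 times the bipolar level. Relative to cones, Kcne2 was at 14.4% in bipolar cells, 1.96% in rods, 0.985% in Müller glia and 0.0595% in amacrine cells. Summed cone markers in those classes were at 0.813%, 1.88%, 0.556% and 0.0590%. The part of cone RNA in these Kcne2 values was not tested. Kcne1l was at 188 CPM in Müller glia (177 to 199) and at 1.64 to 3.54 CPM in cones, amacrine cells, bipolar cells and rods, with 0 counts in ganglion cells. The markers of other cells in the Müller glia column stand beside this value too, and their part in it was not tested. Kcne4 had 18 counts, all in Müller glia. Kcnmb2, a subunit that makes BK channels inactivate, was at 11.9 CPM in bipolar cells, from 346 counts, and next at 0.326 CPM in Müller glia, from 2 counts, so both it and Kcnma1 were highest in bipolar cells. Kcnmb4, another BK subunit, was at 27.6 CPM in Müller glia. Amacrine cells had 14.1 CPM of it and bipolar cells 8.55.

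Kcnab genes code for cytoplasmic beta subunits of Kcna channels. Kcnab1 was at 24.2 CPM in amacrine cells, 6.02 in cones and 2.62 in bipolar cells. Kcnab3 had 48 of 49 counts in amacrine cells. Kcnab2 was the most even of the 3, with 26.2 CPM in ganglion cells, 16.6 in cones, 12 in rods, 11.3 in amacrine cells, 4.72 in bipolar cells and 2.93 in Müller glia. Its rod and amacrine intervals overlapped.

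Other genes whose products work with these channels, or belong to the same superfamily, were listed by name: 15 of 18 were in the table, 10 had at least 20 counts and 5 of these were leading, against 37% of all genes: 1 in rods, 1 in amacrine cells and 3 in Müller glia. The amacrine gene was Lrrc38, a gamma subunit of BK channels, at 24.8 CPM, and the rod gene was the scaffold gene Dlg4, at 15.9 CPM. Kcnj8 and Kcnj10, inward rectifiers of pericytes and glia, were at 88.9 and 6.36 CPM in the Müller glia column.

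The isoforms were then compared. Potassium channel genes had 2 or more isoforms in 31 of 59 cases (52.5%), against 68.1% of all Ensembl genes, with a median of 2 isoforms in both groups. An isoform without an Ensembl identifier is called unannotated here. This applied to 73 of 137 isoforms (53.3%), against 60.3% over all Ensembl genes. By counts, unannotated isoforms held 13.5% for potassium channel genes and 5.58% over all genes. The share was above that of all genes in Müller glia (50.8%, against 5.16%), bipolar cells (38.6%, against 4.33%), ganglion cells (34.2%, against 4.17%) and amacrine cells (8.16%, against 4.97%). In cones (2.09%, against 5.43%) and rods (5.72%, against 6.92%) it was below. Kcne1l held 1153 of the 1249 unannotated counts in Müller glia, and 1 isoform of Kcnip4 held 436 of the 518 in ganglion cells. In bipolar cells Kcna5, Kcnma1 and Kcnb2 had 3177, 1947 and 1452 of 8080. Kcne1l, Kcna5, Kcnb2 and Kcnma1 were among 15 genes with unannotated isoforms only. The models of Kcne1l and Kcna5 have 1 exon each and contain the complete coding sequence.

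A change of the main isoform between classes was looked for in the 18 genes with 2 or more isoforms and at least 20 counts in 2 or more classes. The call, switched, asked for another most abundant isoform and for a gap of at least 50 percentage points in the share of either isoform. This held for 3 of 18 genes (16.7%), against 25% of all genes, a share below the background. Kcnab2 and Kcnk4, which passed, are described here. Just outside the rule were Kcnma1 (48.2 percentage points, bipolar cells and cones) and Kcnn1 (45.4, bipolar cells and rods). With a minimum of 10 counts the call held for 8 of 24 genes (33.3%), against 35.4% of all genes.

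Kcnab2 changed its first exon. Of 4 first exons on the minus strand of chromosome 4, that at chr4:152454834-152455043 was in 72.2% of the counts in rods (68.6 to 75.5; 482 of 668), 78.5% in cones (95 of 121) and 69.3% in bipolar cells (95 of 137). It was in 2.58% in amacrine cells (14 of 543) and in 0 of 92 counts in ganglion cells. The exon at chr4:152418015-152418733 was in 50.5% in amacrine cells (274 of 543) and 39.1% in ganglion cells (36 of 92), against 1.05% in rods, 0.826% in cones and 0.730% in bipolar cells. The third, at chr4:152430615-152430659, was in 18.5% in ganglion cells and 8.66% in amacrine cells, and in at most 1.5% in the other classes. The 5′-most exon was in 20.7% to 42.4% of the counts in these 5 classes, and in 16 of 18 counts in Müller glia. Thus photoreceptors and bipolar cells shared 1 pattern and amacrine and ganglion cells another, with no overlap of the intervals between these groups for either main exon. The model with the photoreceptor exon contains a complete annotated coding sequence, whereas that with the main amacrine exon covers 982 of 1146 coding bases and no complete one.

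Kcnk4 was divided along a similar line. Its first exon at chr19:6933151-6933927 was in 79.4% of the counts in amacrine cells (200 of 252) and 68.8% in ganglion cells (22 of 32), but in 0.847% in bipolar cells (1 of 118), where an exon farther upstream was used. Amacrine and bipolar isoforms mostly ended at the same last exon (84.9% and 81.4%), whereas ganglion cells used another one, farther downstream, in 87.5% of their counts (28 of 32). No modelled Kcnk4 isoform held a complete coding sequence.

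**Figure D4:**
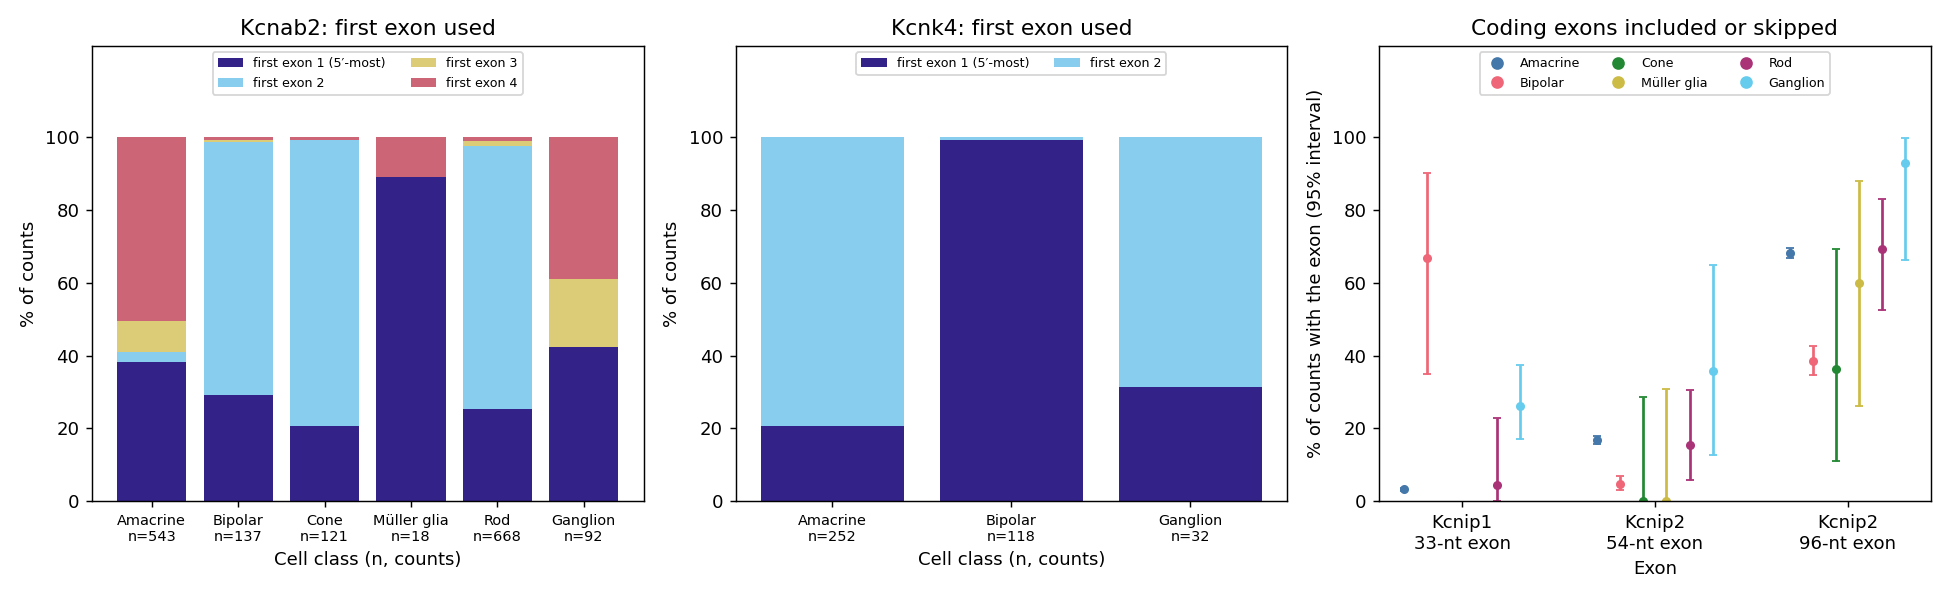
Stacked bars give the percent of a gene's counts that begin at each of its first exons, numbered from the 5′ end, for Kcnab2 and Kcnk4, with the counts under each class. The last panel gives the percent of counts with a coding exon, as points with exact 95% intervals: photoreceptors and bipolar cells share the Kcnab2 pattern with 69.3% to 78.5% on the second first exon, and the Kcnip2 96-nt exon is in 68.1% of counts in amacrine cells and 38.6% in bipolar cells.

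The Kcnip exons shown above were used to different degrees. The Kcnip1 33-nt exon was in 3.25% of the counts in amacrine cells (360 of 11078) and in 26.2% in ganglion cells (17.0 to 37.3; 21 of 80). Bipolar cells had it in 8 of 12 counts. The Kcnip2 96-nt exon was in 68.1% in amacrine cells (2940 of 4319) and 38.6% in bipolar cells (34.5 to 42.7; 218 of 565). The Kcnip2 54-nt exon was in 16.8% and 4.78% of the counts in the same classes. Both exons of Kcnip2 were thus used more in amacrine than in bipolar cells, by more than the counting intervals. In Kcnip4, the first exon at chr5:48509659-48509761 was in 92.1% of the counts in bipolar cells, 78.1% in amacrine cells and 74.7% in ganglion cells.

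In Kcnma1, the 12-nt exon was in 88.5% of the counts in bipolar cells (1624 of 1836), 96% in cones (48 of 50) and 72.5% in rods (58 of 80). The same isoforms held the upstream 92-nt exon alone. Both 92-nt exons stood together in 144 of 1836 counts in bipolar cells and 18 of 80 in rods, and the downstream exon alone in 68 and 4. The first exon at chr14:23554367-23554798 was in 91.2% of the counts in bipolar cells, 76.2% in rods and 44.0% in cones. All 4 modelled Kcnma1 isoforms were partial, and the main one covered 1296 of 3726 coding bases.

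How much of the signal came from RNA that could code for a channel was described with the models. Of the 137 isoforms, 82 had a model, and these held 98.9% of the counts. In ganglion cells they held 1375 of 1513 counts. Only isoforms with a Rod count have a model, so the shares below leave out isoforms without rod counts. A model was counted as complete when it contained a whole annotated coding sequence with the same introns. This applied to 63.3% of the modelled counts of potassium channel genes, against 92.8% over all coding genes. Cones had 98.0%, rods 91.2% and Müller glia 94.9%, but 70.2% in bipolar cells, 43.3% in amacrine cells and 30.3% in ganglion cells. Over all coding genes it was 91.4% to 94.8% in every class. Without Kcna6 the share of potassium channel genes was 87.8% in all, 89.6% in amacrine cells, 74.5% in bipolar cells and 43.7% in ganglion cells. By gene, the median was 91.0%, close to 89.5% over all genes, and 15 of 42 genes (35.7%) had no such count, against 23.9%.

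Kcna6 held 31947 of the incomplete counts in amacrine cells (91.2% of them), but 19.6% of those in bipolar cells, where Kcnma1 (29.8%) and Kcnb2 (23.6%) held more. In ganglion cells Kcnip4 held 45.5% and Kcna6 43.8%. The Kcna6 main isoform, named Kcna6-201, held 30870 of 31947 amacrine counts. This Kcna6 model has exons of 210 and 377 nt and begins 2914 bases past the last coding base. Both exons lie in the annotated 3′ untranslated part of the gene. The other model adds a 106-nt exon between these and was in 3.37% of the amacrine counts. The Kcna4 model ends 451 bases before the first coding base. Kcnh5, Kcnh6, Kcnh7, Kcnd1 and Kcnk4 also had no complete model. Kcne2, Kcnj14, Kcnip1, Kcnip2, Kcnip3, Kcna5, Kcnv2, Kcne1l and Kcnj13 were complete in 100% of the modelled counts. On complete isoforms only, 25 genes had at least 20 counts and 18 of them were leading (72%), all in the same class as before. Over all coding genes counted in this way it was 32.7%.

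**Figure D5:**
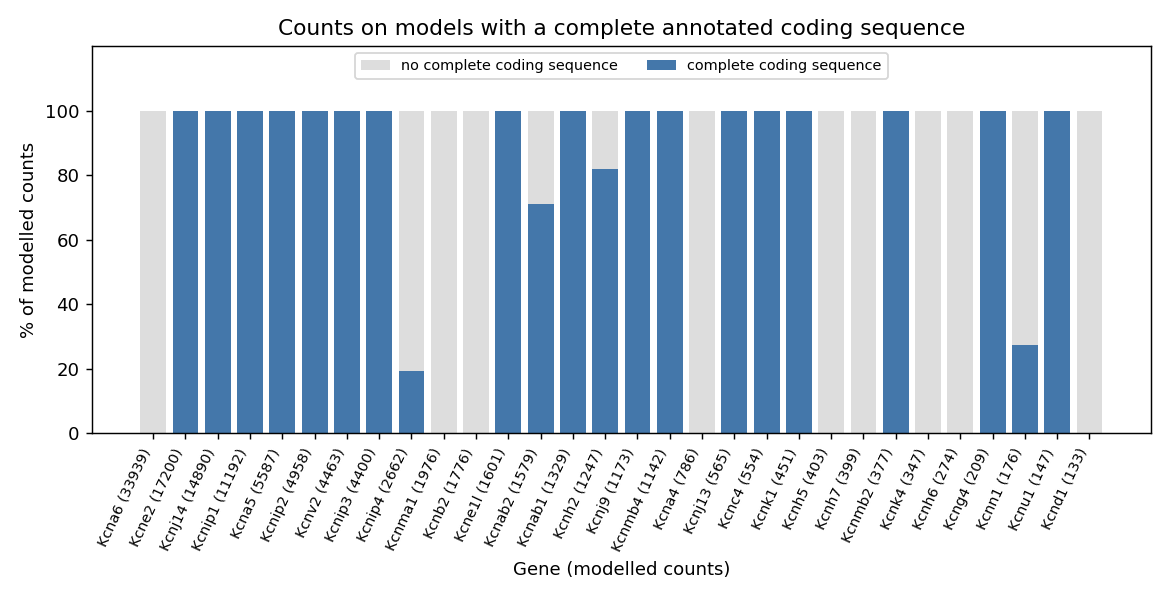
Bars give, for 30 potassium channel genes with at least 100 modelled counts (in brackets, in falling order), the percent of modelled counts on models with a complete annotated coding sequence in blue and the rest in grey. For 17 genes the bar is all blue, for 9, Kcna6 among them, all grey, and 4 lie between.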

How the data were processed

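The authors deposited whole-number counts per isoform in 6 cell class columns, with the 4 libraries pooled, and a set of 36426 transcript models named as FLAIR output in the file itself. The models are the isoforms with a Rod count. Build mm10 is given per the submitters' processing notes. How molecules, cells, doublets and strands were treated is not given in the sources used here, and p-values were not computed, since no class has a replicate. Counts were scaled to CPM by the column total. Models were compared with GENCODE M21, in which 94.4% of 122601 junctions were found. Intervals are exact Poisson or Clopper-Pearson at 95% and cover counting error only, since reads may share a molecule. Tables were made with Python 3.11.15 and pandas 2.3.3, and alternative scalings with edgeR 4.0.16 in R 4.3.3. The call rules were tried on simulated data with changes much larger than the limits of the calls, in genes with counts well above the minimum. That trial does not cover calls near the limits.

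Members, gene lists and rules were chosen with earlier results of these data known. Genes named with values were those with the most counts per family, the leading, restricted and switched genes with the most counts, and a textbook list for the retina. Further genes are given so that every member is accounted for. Alternatives were the minimum count, the fold and share limits, the scaling, and columns left out. Some genes and 1 family are not reported here. A gene can share reads with an overlapping gene on the other strand.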

Additional observations from a re-analysis of the deposited data

How the results depend on the processing

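No paired analysis was possible because each class is 1 column pooled over the libraries, and for the same reason no library could be left out. Trimmed-mean and median-of-ratios scaling moved all genes of a class by -0.19 (amacrine) to 0.24 (Müller glia) on the log2 scale. Under each, 40 of the 40 leading genes kept their class and 21 of the 22 restricted ones did, with 20 restricted under both. Family ratios that moved by more than counting error were auxiliary, cones over amacrine cells (1.51; 1.71 and 1.83), inward rectifier, rods over Müller glia (1.69; 1.5 and 1.32), voltage-gated, amacrine over bipolar cells (1.72; 1.66 and 1.57), and Kcnh, bipolar over amacrine cells (0.31; 0.46 with median-of-ratios).

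The numbers of genes called below show only how far the calls depend on the settings. Shares over all genes at these settings were not computed, apart from those given with the results above. With at least 100 counts (36 genes tested in place of 55) 24 genes were leading: 9 in amacrine cells, 3 in Müller glia and 2 in ganglion cells. Of the same genes 9 were restricted, 2 of them in amacrine cells and 0 in ganglion cells. With at least 4 times the next class, 11 led in amacrine cells and 3 in Müller glia. At 95% of summed CPM, 6 genes were restricted: 4 in amacrine cells, 1 in Müller glia, 1 in ganglion cells and 0 in bipolar cells, cones and rods. Without the ganglion cell column 15 were restricted to amacrine cells. On complete isoforms, 18 led (6 amacrine, 5 bipolar, 3 Müller glia, 1 ganglion). With at least 5 counts, 19 genes were detected in cones and 22 in Müller glia, and 27.8 in rods at equal depth. Switched genes numbered 8 with 10 counts and 7 at 25 percentage points. Unannotated isoforms were 31.9% with at least 100 counts. The complete share was 62.3% for models covering 90% of the longest coding sequence, and 87.8% without Kcna6. Without its top gene, the summed level was 126 CPM in cones, 185 in rods, 213 in Müller glia, 265 in ganglion cells, 526 in bipolar cells and 637 in amacrine cells. Of 143 such alternative values, 100 kept their direction and size. For numbers of genes, size was kept within a factor of 3/2, so 23 in place of 17 leading amacrine genes counted as kept. For shares, ratios and levels it was kept within the counting interval.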

Other observations

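The 3 antisense RNAs among the genes had few counts. Kcnab3os, on the strand opposite Kcnab3, had 29 of its 35 counts in ganglion cells (8.26 CPM), where Kcnab3 itself had 0 counts, and Kcnab3 had 48 of 49 counts in amacrine cells, where Kcnab3os had 2. Kcnmb4os2 had 50 of 58 counts in amacrine cells (1.04 CPM), whereas Kcnmb4 was highest in Müller glia. Kcnd3os had 24 counts, 15 of them in amacrine cells. Models of Kcnab1, Kcnj9, Kcnj13, Kcnk1, Kcnn2 and Kcnip4 also overlap an annotated gene on the other strand, and whether the counting used strand is not given in the sources used here.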
